A study of Danio rerio with 6 samples.

Results

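The 2 libraries of GFP-positive cells from the nkx2.2a reporter line were set against the 2 from the olig2 reporter line, 4 of the 6 libraries of the series. The nkx2.2a cells carried a BAC transgene in which nkx2.2a regulatory sequence drives a membrane form of GFP, and the olig2 cells one in which olig2 sequence drives plain GFP. All embryos were zebrafish of wild-type genotype at 14 hours post fertilisation, their brain and tail regions were cut away, and trunk cells were sorted on GFP. The dbx1b:GFP libraries, 2 of the same age and genotype, entered the estimate of the spread between libraries and are quoted where they show which sort stood apart. Line, form of GFP and sort coincide with the group, so a difference between cell types and one between transgenic lines or sorts cannot be told apart.

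The ventral neural tube is patterned by Sonic hedgehog from the notochord and the floor plate. Progenitors next to the floor plate keep nkx2.2 genes on and form the p3 domain, which in mouse gives V3 interneurons. Progenitors just dorsal to them keep olig2 on and form the pMN domain, the source of motor neurons and later of oligodendrocytes. In zebrafish nkx2.2a is known also in the lateral floor plate.

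The nkx2.2a libraries held 5828858 and 3590968 mapped fragments and the olig2 libraries 3254516 and 4171691, so that 3 fragments amounted to 0.474 to 0.913 CPM (fragment counts scaled to a common library total, with TMM scaling). The nkx2.2a libraries correlated with each other at a Spearman coefficient of 0.776 and the olig2 libraries at 0.754, while the 4 pairs across the sorts lay between 0.704 and 0.783. The 2 libraries of a sort were therefore no more alike than some pairs across the sorts. Neural progenitor genes were abundant in all 4 libraries: sox3, a SoxB1 factor gene, stood at 199.8 and 159.7 CPM against 195 and 167 CPM (nkx2.2a sort first, libraries 1 and 2 in that order, as throughout).

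Both reporter genes matched their sorts. Transcripts of nkx2.2a stood at 495 and 364 CPM against 8.22 and 26.5 CPM, and those of olig2 at 19.3 and 70.5 CPM against 219.7 and 125 CPM. For each gene both libraries of its own sort lay above both of the other, but the fitted log2 fold changes (nkx2.2a over olig2, with SE) differed in size, 4.62 ± 0.67 for nkx2.2a and -1.94 ± 0.72 for olig2. The olig2 transcripts of nkx2.2a library 2 came within 1.78-fold of those of olig2 library 2, so that olig2 misses the 2-fold gap used below. The p0 gene dbx1b stood at 11.5 and 49.3 CPM against 17.04 and 9.24 CPM, with overlapping sorts. Its log2 fold change of 1.21 ± 0.69 became -0.17 without nkx2.2a library 2. In bulk samples, fewer cells of a type and less RNA per cell cannot be told apart.

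No gene passed edgeR's quasi-likelihood test over all 19129 symbols tested: 0 (0%) reached an adjusted p under 0.05, and the smallest adjusted p was 0.376. At an unadjusted edgeR p under 0.05 there were 1171 symbols (6.12%) higher and 502 (2.62%) lower in the nkx2.2a sort. DESeq2 called 567 genes on the same table (421 higher, 146 lower). With 2 libraries against 2, an exact permutation test of a single gene cannot go below p = 0.333. Genes are therefore described below by their value in every library. A gene is called separated where both libraries of one sort lay above both of the other, the lowest of the upper pair was at least 2 times the highest of the lower pair (values under 3 fragments set to 3), and the upper sort averaged 5 CPM or more. Of all symbols tested, 1087 (5.68%) were separated with the nkx2.2a sort higher and 541 (2.83%) with it lower. Non-overlap of any size held for 3835 (20.0%) and 3012 (15.7%). The plot of all genes shows them on both sides of the line of equal levels.

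**Figure D1:**
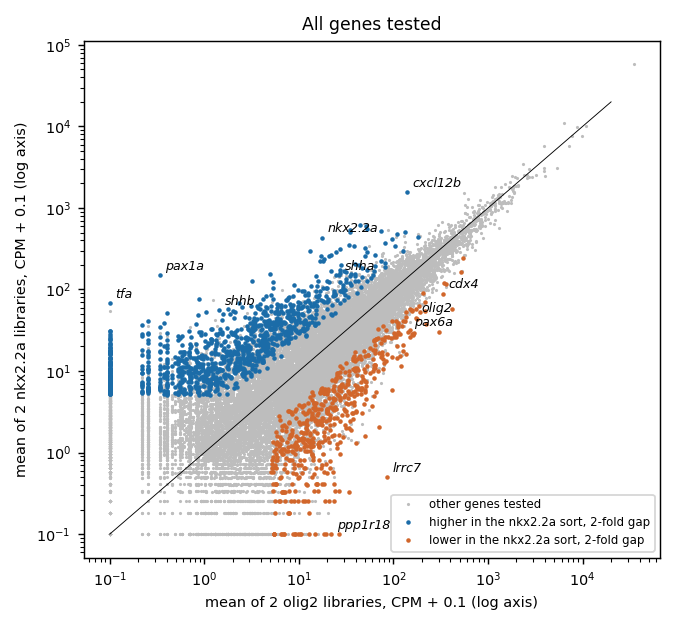
Mean level of each of the 19129 symbols tested in the 2 nkx2.2a libraries (vertical axis) against the 2 olig2 libraries (horizontal axis), in TMM-scaled CPM plus 0.1 on log axes. Blue points are the 1087 genes separated with the nkx2.2a sort higher, orange points the 541 with it lower, and the line marks equal levels.

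Secreted molecules leaned most clearly to the nkx2.2a sort. Of 359 secreted molecule genes tested, 55 (15.3%) were separated with the nkx2.2a sort higher and 5 (1.39%) with it lower, and their median log2 fold change was 0.71 (0.60 with genes at 0 in a sort set to the value that 3 fragments allow). Of 810 surface molecule genes, 65 (8.02%) and 14 (1.73%) were separated, with a median of 0.18 (0.12 with that floor). Of 498 transcription factor genes, 43 (8.63%, nkx2.2a among them) and 27 (5.42%) were separated, with a median of 0.09 (0.06). Without nkx2.2a library 1 that order turned for transcription factors, to 77 and 84. The median over all symbols tested was 0.05 (0.01). Among genes averaging 5 CPM or more in a sort, which alone could be separated, the shares were 21.8% and 1.98% for secreted molecules, 12.1% and 2.61% for surface molecules, 10.9% and 6.87% for transcription factors, and 7.89% and 3.93% for all genes. The bar plot by family shows that Pax genes, semaphorins, netrin and slit genes and collagens held the largest shares toward the nkx2.2a sort among families of 10 or more once the reporter genes are left out, and Hox genes the largest toward the olig2 sort. The NK share of 21.4% includes nkx2.2a, and without it 2 of 13 (15.4%) were separated. None of these members passed edgeR's test over all genes.

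**Figure D2:**
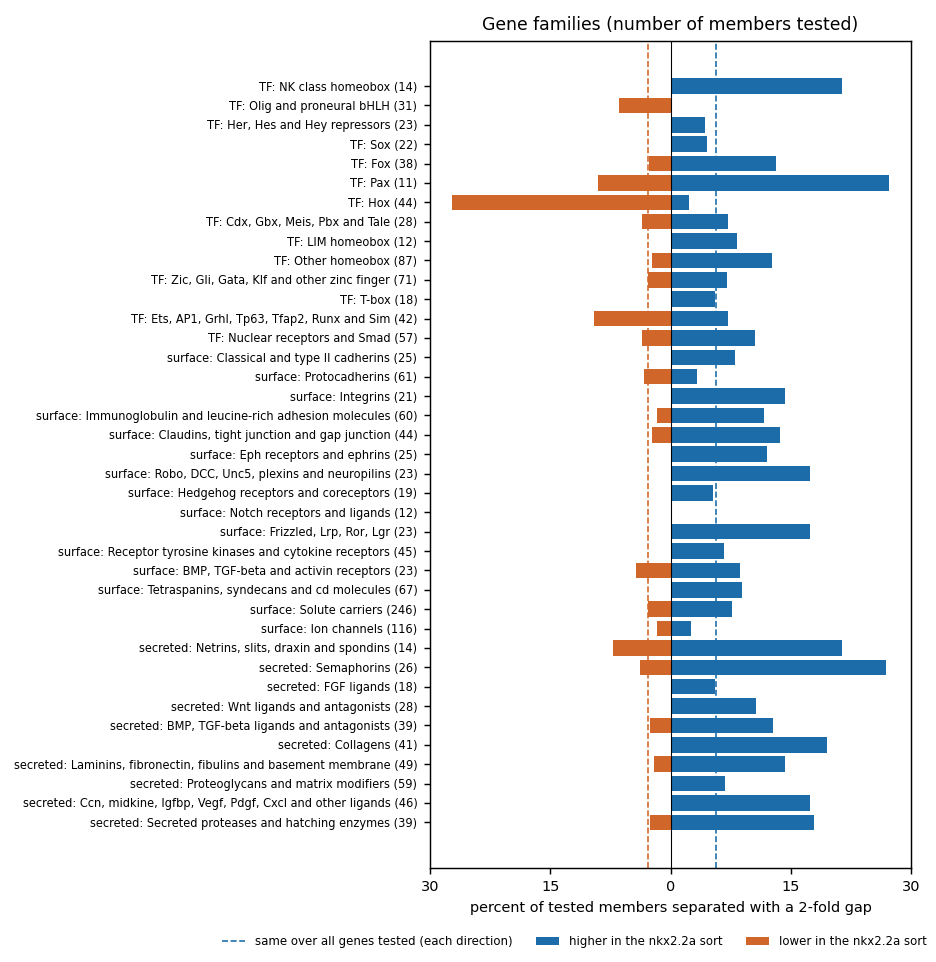
Share of tested members separated with a 2-fold gap, for each gene family with at least 10 members tested (number in brackets). Bars to the right are genes higher in the nkx2.2a sort, bars to the left genes lower in it, and dashed lines give the shares over all genes, 5.68% and 2.83%. Hox genes extend furthest left and Pax genes and semaphorins furthest right.

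Among transcription factors of the ventral neural tube, nkx2.2a itself was separated, but its close relatives were not. The paralog nkx2.2b stood at 87.96 and 93.8 CPM against 26.5 and 80.4 CPM, and nkx2.9, another ventral Nkx2 gene, at 123 and 47.2 CPM against 103 and 101 CPM. The sorts did not overlap for nkx2.2b, with a gap under 2-fold, and overlapped for nkx2.9, which stood at 0.1801 and 2.96 CPM in the dbx1b libraries, below all 4. The factor gene nkx6.1, shared by p3, pMN and p2 progenitors, stood at 139 and 129 CPM against 295 and 182 CPM, with both olig2 libraries above both nkx2.2a libraries by less than 2-fold. Its relative nkx6.2 stood at 129 and 166 CPM against 135 and 145 CPM and did not set the sorts apart. Transcripts of sim1a, whose mouse counterpart marks V3 neurons from p3, were separated toward the olig2 sort, at 6.32 and 2.72 CPM against 23.7 and 30.1 CPM (log2 fold change -2.57 ± 1.21).

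Early neuron genes went both ways. Of 25 tested, 13 had positive and 12 negative log2 fold changes, with a median of 0.05. Of the 25, 3 (12%) were separated toward the olig2 sort and 1 (4%) toward the nkx2.2a sort, against 2.83% and 5.68% of all symbols. The list summed to 2338 and 1880 CPM against 3338 and 2851.5 CPM, lower in both nkx2.2a libraries. The proneural gene neurog1 stood at 20.2 and 7.56 CPM against 84.6 and 71.6 CPM (log2 fold change -2.49 ± 0.82), so that the lower olig2 library held 3.54 times the higher nkx2.2a library. The bHLH gene nhlh2 stood at 12.3 and 0 CPM against 59.3 and 34.4 CPM, and ebf2, a factor gene of differentiating neurons, at 35.4 and 16.6 CPM against 90.98 and 71.1 CPM. The gene separated toward the nkx2.2a sort was the zinc finger gene insm1a, at 35.8 and 39.3 CPM against 9.43 and 14.9 CPM. Of 11 pMN and motor neuron genes other than olig2, 7 had negative log2 fold changes, with a median of -0.82. Of these 11, 3 were without overlap toward the olig2 sort (olig4, nkx6.1 and neurog1), 0 were toward the nkx2.2a sort, beside 15.7% and 20.0% of all symbols, and only neurog1 was separated. Here olig4 was also listed with dorsal neural tube genes and neurog1 with early neuron genes. The gene nkx6.1 is shared with p3 and p2 progenitors, so none of the 3 marks pMN alone. The 11 genes summed to 379.6 and 462 CPM in the nkx2.2a libraries and 672 and 573 CPM in the olig2 libraries. The LIM homeobox gene isl1, of early motor neurons, stood at 12 and 19.1 CPM against 3.04 and 22.5 CPM, and mnx1 at 5.68 and 4.84 CPM against 28.9 and 4.504 CPM, with overlap in both.

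Genes of the p0 to p2 domains and V2 neurons went both ways. Of 22 tested, 13 had positive and 9 negative log2 fold changes, with a median of 0.43 (0.12 with floors). Without overlap of any size, 6 lay toward the nkx2.2a sort and 4 toward the olig2 sort, beside 20.0% and 15.7% of all symbols. Of the 22, 3 (13.6%) were separated toward the olig2 sort, against 2.83% of all symbols. The paired-box gene pax6a, kept low by high Hedgehog signalling, stood at 32.7 and 27.5 CPM against 132 and 156 CPM (log2 fold change -2.26 ± 0.44), whereas its paralog pax6b overlapped at 134 and 53.5 CPM against 112 and 89.6 CPM. The zinc finger gene sp8a stood at 53.8 and 21.5 CPM against 209 and 231 CPM (-2.54 ± 0.59), and prdm8 at 11.5 and 0 CPM against 90.1 and 104 CPM. For pax6a and sp8a the dbx1b libraries, at 163 and 142 CPM and 164 and 75.3 CPM, lay above both nkx2.2a libraries. The Iroquois gene irx5a went the other way, at 19.7 and 51.1 CPM against 7.303 and 8.77 CPM. It was the 1 gene of that list separated toward the nkx2.2a sort (4.55%, against 5.68% of all symbols).

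**Figure D3:**
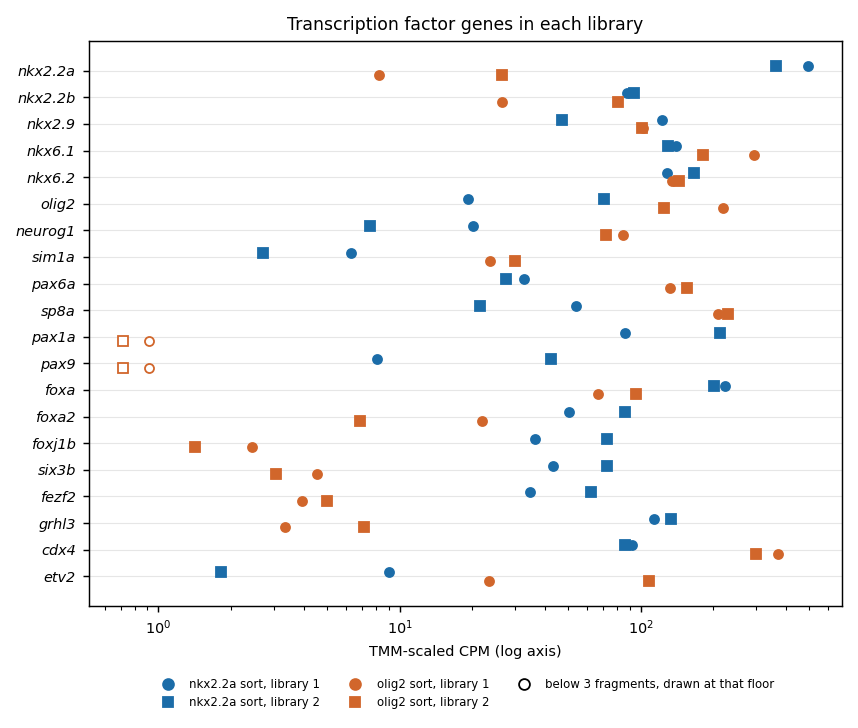
Levels of 20 transcription factor genes in each of the 4 libraries, in TMM-scaled CPM on a log axis, with the nkx2.2a sort in blue and the olig2 sort in orange (circles, library 1; squares, library 2; open symbols, under 3 fragments). The colours do not mix for nkx2.2a, pax6a, pax1a or grhl3, whereas nkx2.9 and nkx6.2 overlap.

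Forkhead genes of the floor plate lay with the nkx2.2a sort. The gene foxj1b, a regulator of motile cilia, stood at 36.3 and 72.3 CPM against 2.43 and 1.42 CPM (log2 fold change 4.81 ± 0.97). The floor plate and endoderm factor gene foxa2 stood at 50.2 and 86.2 CPM against 21.9 and 6.87 CPM. Its relatives lay the same way, foxa at 223 and 201 CPM against 66.3 and 95.5 CPM and foxa1 at 44.4 and 55.3 CPM against 20.7 and 9.72 CPM. All 4 genes were without overlap, and foxj1b was close to absent from the olig2 libraries. The related cilia regulator foxj1a did not follow them, at 36.3 and 20.6 CPM against 81.9 and 30.8 CPM. The SoxB1 gene sox1b stood at 92.5 and 101 CPM against 19.2 and 11.1 CPM (2.67 ± 0.78), while the other SoxB1 genes tested, sox1a, sox2, sox3, sox19a and sox19b, were not separated. The homeobox gene arxa was separated too, at 16.7 and 24.2 CPM against 6.39 and 1.896 CPM. In all, 12 of 21 (57.1%) floor plate and lateral floor plate genes tested were separated toward the nkx2.2a sort and 0 toward the olig2 sort. Over all symbols these shares were 5.68% and 2.83%. The list's median log2 fold change was 2.11. The summed level of the list was 2121 and 2400.3 CPM against 824 and 772 CPM. Some of these genes (shha, shhb, foxa2, foxa, col2a1a and ctgfa) are notochord markers as well.

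Pax1 and Pax9 factors, which are known from pharyngeal pouches and sclerotome, were nearly confined to the nkx2.2a libraries among these 4. Transcripts of pax1a stood at 86.2 and 213 CPM against 0 and 0.474 CPM, a ratio of 487-fold (95% counting interval 135 to 4026), and pax9 at 8.05 and 42.3 CPM against 0 and 0 CPM, at least 31.03-fold higher. In the dbx1b libraries pax1a stood at 0.5403 and 0 CPM and pax9 at 0 in both. The T-box gene tbx1 stood at 53.2 and 64.4 CPM against 8.22 and 12.6 CPM, and nkx2.7 at 21.3 and 24.8 CPM against 2.74 and 5.45 CPM. Of 18 T-box genes tbx1 was the 1 separated (5.56%), near the 5.68% of all symbols. Of 16 sclerotome genes tested only pax1a and pax9 were separated (12.5%). The list summed to 307 and 470.0 CPM against 161 and 129.9 CPM, and the part of such cells in these values was not tested.

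Factors of other regions were unevenly held too. Forebrain genes were separated toward the nkx2.2a sort in 7 of 23 tested (30.4%, against 5.68% of all symbols), although brain had been removed. The eye and forebrain gene six3b stood at 43.3 and 72.6 CPM against 4.56 and 3.08 CPM, and fezf2 at 34.7 and 62 CPM against 3.96 and 4.98 CPM. The ventral forebrain gene nkx2.1 stood at 34.4 and 38.7 CPM against 12.8 and 0 CPM. For these 3 genes the olig2 libraries held low levels. Of 31 midbrain and hindbrain genes, 8 (25.8%) were separated toward the nkx2.2a sort and 1 (3.23%), hoxb1b, toward the olig2 sort. Over all symbols these shares were 5.68% and 2.83%. The paired-box gene pax5 stood at 14.5 and 3.93 CPM against 0 and 0 CPM, at least 11.4-fold higher, and egr2b, a gene of rhombomeres, at 151 and 189.9 CPM against 56.9 and 66.8 CPM. In the dbx1b libraries egr2b stood at 209 and 210 CPM. The midbrain and hindbrain list summed to 1904 and 2334 CPM against 1582 and 1471.5 CPM. It summed to 2415 and 2531 CPM in the dbx1b libraries, so that the olig2 sort was the lowest of the series. The placode genes six1b and foxi1 were at 0 in both olig2 libraries and stood at 8.53 and 30.5 CPM and at 9.16 and 25.1 CPM in the nkx2.2a libraries. The epidermal factor gene grhl3 stood at 114 and 134 CPM against 3.35 and 7.11 CPM (log2 fold change 4.55 ± 0.77). Toward the olig2 sort lay the endothelial gene etv2, at 9.001 and 1.81 CPM against 23.4 and 109 CPM. The myeloid gene spi1b stood at 3.0 and 1.21 CPM against 34.99 and 7.11 CPM, and the endoderm and mesoderm gene gata6 at 2.21 and 0 CPM against 21.6 and 4.98 CPM. In each of these 3 genes 1 olig2 library stood far above the other.

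Hox genes, which mark position along the body axis, were mostly lower in the nkx2.2a sort. Of 44 tested, 12 (27.3%) were separated with the nkx2.2a sort lower and 1 (2.27%) with it higher, against 2.83% and 5.68% of all symbols. The median log2 fold change was -1.34. By paralog group the medians were -0.23 for groups 1 to 2 (6 genes), -1.15 for 3 to 5 (12), -1.62 for 6 to 8 (8), -1.58 for 9 to 10 (9) and -0.69 for 11 to 13 (9). All 8 genes of groups 6 to 8 and 8 of 9 of groups 9 to 10 had negative values. The summed level of groups 6 to 8 was 182 and 104 CPM in the nkx2.2a libraries against 514 and 386 CPM in the olig2 libraries. The gene hoxc6b stood at 46.4 and 61.4 CPM against 155 and 159.8 CPM and hoxb9a at 53.5 and 27.5 CPM against 137 and 116 CPM. Of the 44, 8 had positive values. Without overlap of any size, 3 (hoxa2b, hoxb1a and hoxd13a) lay toward the nkx2.2a sort and 24 toward the olig2 sort, beside 20.0% and 15.7% of all symbols. The 1 separated with the nkx2.2a sort higher was the anterior hindbrain gene hoxa2b, at 40.7 and 34.2 CPM against 5.48 and 1.19 CPM (log2 fold change 3.50 ± 0.92). It stood at 43.9 and 54.8 CPM in the dbx1b libraries, so that the olig2 sort stood apart from both. The caudal gene cdx4 stood at 91.9 and 86.2 CPM against 372 and 300.1 CPM (-1.91 ± 0.36), in the same direction as the Hox genes of the trunk. In the dbx1b libraries cdx4 stood at 446 and 335 CPM, close to the olig2 sort.

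**Figure D4:**
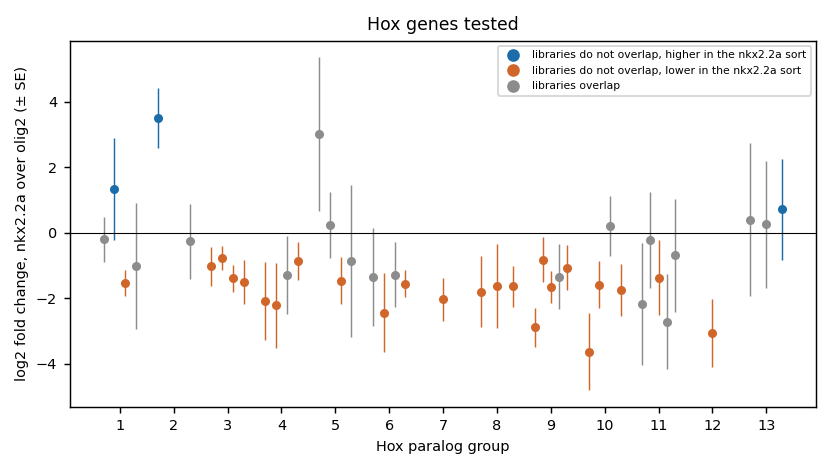
Log2 fold change (nkx2.2a over olig2, points; bars, SE from edgeR) of the 44 Hox genes tested, by paralog group. Most points lie below 0, all of them in groups 6 to 8, and hoxa2b in group 2 is the highest point.

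Among Hedgehog pathway genes the ligands and the release protein were separated, whereas ptch1 and gli1 were not. The ligand gene shha stood at 111 and 188 CPM against 32.3 and 21.1 CPM (log2 fold change 2.49 ± 0.58) and shhb at 64.9 and 47.2 CPM against 0.304 and 2.37 CPM (5.35 ± 1.12). Transcripts of disp1, which encodes a transporter that releases the ligand from cells, stood at 36.5 and 60.2 CPM against 7.61 and 0.948 CPM. The ligand-binding inhibitor gene hhip stood at 123 and 107 CPM against 59.3 and 73.5 CPM, without overlap but with less than a 2-fold gap. The receptor gene ptch1 overlapped at 119 and 249 CPM against 213 and 75.1 CPM, as did the effector and target gene gli1, at 166 and 295 CPM against 224 and 164 CPM. The list of pathway and target genes did not hold the ligand genes shha and shhb, which were counted as a family of their own (2 of 2 separated). Of the 21 genes tested on that list other than the reporter genes, 2 (9.52%), disp1 and foxa2, were separated toward the nkx2.2a sort and 0 toward the olig2 sort. Over all symbols these shares were 5.68% and 2.83%. Without overlap of any size, 9 of the 21 lay toward the nkx2.2a sort and 1 toward the olig2 sort, beside 20.0% and 15.7% of all symbols. The 21 genes summed to 2957 and 2792 CPM against 2102 and 1804 CPM.

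Of 14 netrin, slit, draxin and spondin genes, 3 (21.4%) were separated toward the nkx2.2a sort and 1 (7.14%) toward the olig2 sort. Over all symbols these shares were 5.68% and 2.83%. The repellent gene slit2 stood at 71.7 and 138 CPM against 2.43 and 8.06 CPM (log2 fold change 4.31 ± 0.83) and slit1b at 31.7 and 25.4 CPM against 0.304 and 3.56 CPM. The other slit genes were without overlap but under the 2-fold gap, slit3 at 259 and 613 CPM against 78.8 and 136 CPM and slit1a at 206 and 223 CPM against 99.5 and 114 CPM. The netrin genes ntn1a and ntn1b, midline attractants, did not overlap but had small gaps, at 184 and 118 CPM against 113 and 67.8 CPM and at 135 and 126 CPM against 106 and 75.4 CPM. The matrix gene spon1b, an F-spondin of the floor plate, stood at 82.6 and 85.6 CPM against 17.04 and 0.237 CPM. Transcripts of draxin, a secreted repellent, lay the other way, at 23.5 and 11.8 CPM against 47.8 and 49.8 CPM. Of the 14 genes, 13 had positive log2 fold changes, with a median of 1.11.

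Semaphorins, secreted or membrane repellents, were separated toward the nkx2.2a sort in 7 of 26 (26.9%) and toward the olig2 sort in 1 (3.85%). Over all symbols these shares were 5.68% and 2.83%. The median log2 fold change of the semaphorins was 1.43 (1.33 with floors), and 18 of the 26 had positive and 8 negative values. The gene sema6e was at 0 in both olig2 libraries and stood at 21.5 and 10.9 CPM in the nkx2.2a libraries, at least 19.9-fold higher. The gene sema3d stood at 30.6 and 79.5 CPM against 0.304 and 9.72 CPM and sema3fa at 13.6 and 138 CPM against 0.609 and 0.948 CPM, with nkx2.2a library 2 far above library 1 for the latter. The 1 separated toward the olig2 sort was sema3e, at 1.11 and 0 CPM against 13.4 and 20.4 CPM (log2 fold change -4.83 ± 1.73), with 16.9 and 5.21 CPM in the dbx1b libraries. Of the 4 neuropilin genes, which encode semaphorin receptors, nrp1a and nrp2a were separated. The gene nrp1a stood at 43.43 and 74.1 CPM against 4.87 and 4.03 CPM (3.72 ± 0.75) and nrp2a at 63.2 and 62.3 CPM against 15.2 and 13.04 CPM. Their paralogs were not separated, nrp1b overlapping at 16.7 and 8.77 CPM against 10.3 and 32.7 CPM and nrp2b standing at 126 and 152 CPM against 66.03 and 63.5 CPM, with a gap under 2-fold. Neogenin transcripts, listed under neo1 and neo1a, which may share reads, stood at 148 and 179.6 CPM against 34.1 and 29.4 CPM and at 73.3 and 146 CPM against 19.8 and 11.4 CPM. The Slit receptor gene robo1 did not overlap, at 178 and 62.9 CPM against 37.1 and 28.2 CPM, while robo3 lay the other way at 228 and 131 CPM against 414 and 260.0 CPM, and dcc, a netrin receptor gene, at 7.74 and 29.6 CPM against 32.9 and 35.3 CPM. Of 23 Robo, DCC, Unc5, plexin and neuropilin genes, 4 (17.4%) were separated toward the nkx2.2a sort and 0 toward the olig2 sort.

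**Figure D5:**
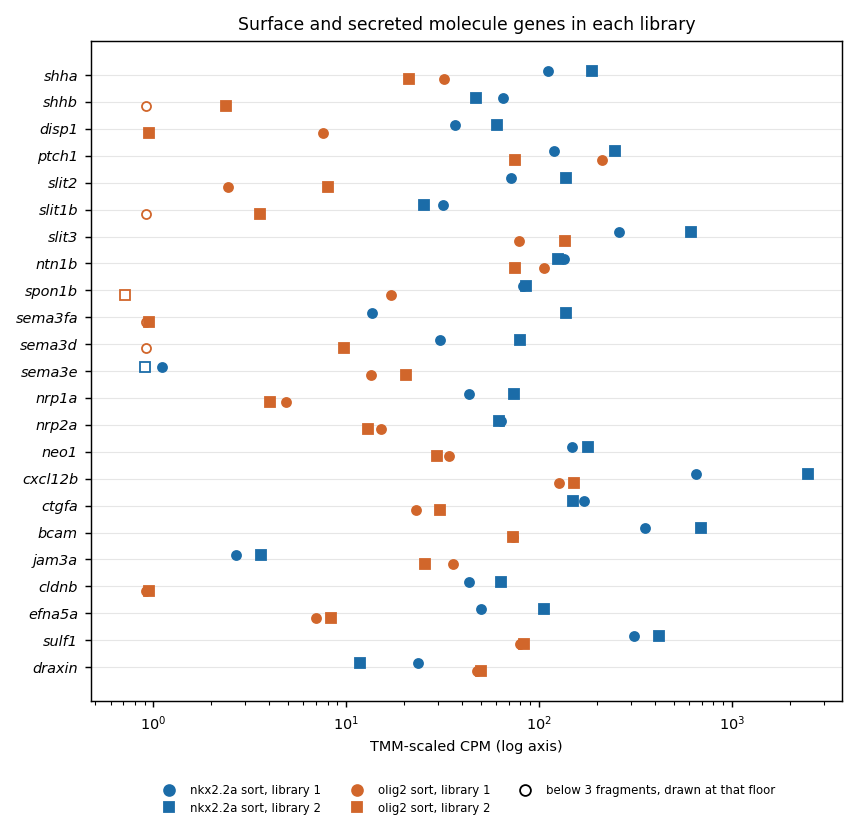
Levels of 23 surface and secreted molecule genes in each of the 4 libraries, in TMM-scaled CPM on a log axis, with colours and symbols as for the transcription factors. The blue points lie to the right of the orange ones for shha, slit2, nrp1a, bcam and cldnb, to the left for sema3e, jam3a and draxin, and among them for ptch1.

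Of other ligand families, 8 of 46 growth factor and chemokine genes (17.4%), 5 of 39 BMP and TGF-beta genes (12.8%) and 3 of 28 Wnt genes (10.7%) were separated toward the nkx2.2a sort, against 5.68% of all symbols. For FGF ligands the count was 1 of 18 (5.56%), near that share. Of these families 1 gene, twsg1b, was separated toward the olig2 sort. The chemokine gene cxcl12b, whose product guides migrating cells, stood at 650.4 and 2487 CPM against 127 and 151 CPM (log2 fold change 3.50 ± 0.69), with nkx2.2a library 2 far above library 1. The connective tissue growth factor gene ctgfa stood at 170.2 and 149 CPM against 23.1 and 30.8 CPM (2.57 ± 0.51) and the vascular growth factor gene vegfaa at 65.7 and 56.9 CPM against 0.304 and 4.504 CPM. For TGF-beta signalling, tgfb2 and the activin subunit gene inhbaa were at 0 in both olig2 libraries, with 9.47 and 7.86 CPM and 10.6 and 6.35 CPM in the nkx2.2a libraries, and the coreceptor gene tgfbr3 stood at 11.2 and 41.7 CPM against 0 and 0.237 CPM. Of 23 BMP, TGF-beta and activin receptor genes, 2 (8.70%) were separated toward the nkx2.2a sort and 1 (4.35%), acvr1ba, toward the olig2 sort. Over all symbols the shares were 5.68% and 2.83%. The BMP modulator gene bmper stood at 53.2 and 56.6 CPM against 1.22 and 10.2 CPM, while twsg1b, another BMP-binding protein gene, stood at 3.0 and 1.21 CPM against 8.22 and 27.02 CPM, toward the olig2 sort. In Wnt signalling, the secreted antagonist gene sost was at 0 in both olig2 libraries and at 10.9 and 14.5 CPM in the nkx2.2a libraries, and wnt7bb stood at 7.26 and 13.9 CPM against 0 and 0.237 CPM. Of 23 Frizzled, Lrp, Ror and Lgr family genes, 4 (17.4%) were separated toward the nkx2.2a sort and 0 toward the olig2 sort. Yet 10 had positive and 13 negative log2 fold changes, with a median of -0.06. The family summed to 1942 and 1728 CPM against 2098 and 1794 CPM, with overlapping sorts. The Frizzled receptor gene fzd8b was at 0 in both olig2 libraries and at 21.3 and 32.1 CPM in the others, at least 32.9-fold higher in the nkx2.2a sort. The gene znrf3, which encodes a ligase that removes Frizzled receptors, stood at 37.3 and 65.3 CPM against 7.91 and 11.6 CPM. Of 12 Notch receptor and ligand genes tested, 0 were separated in either direction. For example, dla stood at 205 and 74.1 CPM against 388 and 171 CPM and notch3 at 438 and 581 CPM against 638 and 372 CPM.

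Of 49 laminin and basement membrane genes 7 (14.3%) were separated toward the nkx2.2a sort and 1 (2.04%) toward the olig2 sort. Of 59 proteoglycan and matrix modifier genes 4 (6.78%) and 0 were separated, near the 5.68% and 2.83% over all symbols. Of 41 collagen genes, 8 (19.5%) were separated with the nkx2.2a sort higher and 0 with it lower, and the median log2 fold change was 1.00 (0.93 with floors). The cartilage and notochord collagen gene col2a1a stood at 296 and 531 CPM against 70.6 and 120.4 CPM. Its partners in cartilage fibrils, col9a2 and col9a3, stood at 134 and 179 CPM against 41.99 and 35.3 CPM and at 26.8 and 25.4 CPM against 0 and 0.474 CPM, the latter close to 0 in the olig2 libraries. The basement membrane gene fras1 stood at 282 and 368 CPM against 56.6 and 42.4 CPM (log2 fold change 2.71 ± 0.52) and the hemicentin gene hmcn1 at 102 and 68.7 CPM against 7.61 and 2.37 CPM. The sulfatase gene sulf1, which edits heparan sulfate, stood at 313 and 420.4 CPM against 79.4 and 83.9 CPM (2.17 ± 0.36), and in the dbx1b libraries at 313 and 328 CPM, near the nkx2.2a sort. The membrane protease gene mmp15 stood at 136 and 205 CPM against 10.04 and 33.2 CPM. The notochord list, which itself holds col2a1a, col9a2 and col9a3 and shares genes with the floor plate list, stood higher too. Of 29 tested, 11 (37.9%) were separated toward the nkx2.2a sort and 0 toward the olig2 sort, with summed levels of 4149 and 5183 CPM against 2093 and 2010.5 CPM. The T-box gene ta and noto, which define early notochord, stood at 20.2 and 4.54 CPM against 8.52 and 48.1 CPM and at 3.95 and 0.302 CPM against 0.304 and 7.82 CPM, with overlapping sorts. The part of notochord cells in the collagen values was not tested.

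Of 60 immunoglobulin and leucine-rich adhesion genes, 7 (11.7%) were separated toward the nkx2.2a sort and 1 toward the olig2 sort. Of 21 integrin genes, 3 (14.3%) and 0 were separated, against 5.68% and 2.83% of all symbols. The immunoglobulin adhesion gene bcam, a laminin receptor, stood at 355 and 693 CPM against 73.03 and 73.2 CPM (log2 fold change 2.84 ± 0.44) and alcama at 146 and 158 CPM against 54.2 and 68.3 CPM. The junctional adhesion gene jam3a went the other way, at 2.68 and 3.63 CPM against 35.9 and 25.6 CPM (-3.28 ± 1.09), with 2.88 and 2.54 CPM in the dbx1b libraries, so that the olig2 sort stood apart from both. Among ephrin genes, which guide cell sorting at boundaries, efnb3b stood at 194 and 177 CPM against 51.7 and 41.2 CPM and efna5a at 49.9 and 106 CPM against 6.999 and 8.296 CPM. The receptor gene ephb3a stood at 77.4 and 121 CPM against 15.8 and 3.56 CPM. Of 25 Eph and ephrin genes tested 3 (12%) were separated toward the nkx2.2a sort and 0 were separated toward the olig2 sort. The collagen-binding integrin genes itga10 and itga11a stood at 12.6 and 19.7 CPM against 0 and 0 CPM, and at 23.5 and 32.96 CPM against 2.43 and 0.474 CPM. Among protocadherins 2 of 61 were separated each way; pcdh7b stood at 35.8 and 24.8 CPM against 3.65 and 0 CPM, and pcdh1g26, of a cluster whose members share near-identical sequence and are uncertain as single genes, at 5.37 and 2.72 CPM against 13.7 and 62.3 CPM. The protocadherin shares were 3.28% each way, against 5.68% and 2.83% of all symbols. Among the 28 protocadherins averaging 5 CPM or more in a sort they were 7.14% each way, against 7.89% and 3.93% of all genes at that level.

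Of 44 claudin, tight junction and gap junction genes, 6 (13.6%) were separated toward the nkx2.2a sort and 1 (2.27%) toward the olig2 sort, and 27 had positive and 16 negative log2 fold changes. The claudin gene cldnb stood at 43.43 and 63.5 CPM against 0.913 and 0.948 CPM (log2 fold change 5.82 ± 1.01) and cldn7b at 244 and 202 CPM against 85.8 and 61.4 CPM. The tight junction scaffold gene tjp2b was the exception, at 4.74 and 0.302 CPM against 16.4 and 18.96 CPM. The E-cadherin gene cdh1 stood at 231 and 288 CPM against 71.2 and 27.97 CPM and the keratin gene krt8 at 419.6 and 599.7 CPM against 138 and 129.9 CPM (1.93 ± 0.38). Of 43 epidermis and periderm genes tested, 11 (25.6%) were separated toward the nkx2.2a sort and 0 toward the olig2 sort, although the median was 0.35. Over all symbols the shares were 5.68% and 2.83%. The summed level of the list was 4212 and 4689 CPM against 2922 and 2933 CPM. The basal epidermal factor gene tp63 stood at 129 and 158 CPM against 76.98 and 135 CPM and the periderm keratin gene krt4 at 549.7 and 449 CPM against 674 and 459 CPM, present in all 4 libraries and overlapping. The part of epidermal cells in these values was not tested. Hatching gland enzyme genes stood apart too: he1a at 359 and 242 CPM against 1.22 and 24.9 CPM and he1b, a near copy that may share its reads, at 144 and 109 CPM against 0.304 and 5.93 CPM. Of 9 hatching gland genes tested, 5 (55.6%) were separated toward the nkx2.2a sort, with summed levels of 1546 and 972 CPM against 169 and 295 CPM.

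Retinoic acid genes were separated in both directions. The retinoic acid-degrading enzyme genes cyp26b1 and cyp26c1 stood at 65.4 and 84.1 CPM against 3.96 and 10.4 CPM and at 209.6 and 373 CPM against 57.5 and 46.7 CPM. In the dbx1b libraries cyp26b1 stood at 18.2 and 26.9 CPM, between the sorts, and cyp26c1 at 238 and 427 CPM, near the nkx2.2a sort. The receptor genes went opposite ways, rarga at 52.9 and 86.8 CPM against 22.5 and 14.2 CPM and rargb at 4.11 and 0.302 CPM against 10.7 and 11.4 CPM. The retinol uptake gene stra6 stood at 2.84 and 5.14 CPM against 17.6 and 10.9 CPM. Of 23 tested, 4 (17.4%) were separated toward the nkx2.2a sort and 2 (8.70%) toward the olig2 sort, with a median of -0.34. Over all symbols the shares were 5.68% and 2.83%.

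Cell cycle genes were slightly lower as a list in the nkx2.2a sort. Of 39 tested, 29 had negative log2 fold changes, beside 9245 of all 19129 symbols. The list's median was -0.38, and its summed level was 8268 and 7164 CPM against 10524 and 10075 CPM. Only 2 (5.13%), ccne2 and birc5a, were separated toward the olig2 sort and 1 (2.56%), cdkn1a, toward the nkx2.2a sort. Over all symbols the shares were 2.83% and 5.68%. The cyclin gene ccne2 stood at 250.3 and 241 CPM against 537 and 560.3 CPM (log2 fold change -1.16 ± 0.32) and the mitotic gene birc5a at 19.9 and 3.33 CPM against 51.1 and 77.5 CPM. The cell cycle inhibitor gene cdkn1a, a p53 target, stood at 10.4 and 6.65 CPM against 2.43 and 2.61 CPM, and phlda3, another one, at 8.53 and 10.6 CPM against 0.304 and 0.711 CPM. In the dbx1b libraries phlda3 stood at 64.8 and 64.1 CPM, above both sorts. Of 38 cilia genes tested, 21 had positive and 17 negative log2 fold changes, with a median of 0.20. The cilia list summed to 1219 and 1452 CPM against 1238 and 978 CPM, with overlapping sorts. Of the 38, 4 (10.5%) were separated toward the nkx2.2a sort and 0 toward the olig2 sort, against 5.68% and 2.83% of all symbols. Among them were foxj1b, the dynein assembly gene ccdc39, at 24.8 and 50.2 CPM against 4.87 and 4.27 CPM, and pkd1l1, at 7.74 and 30.2 CPM against 0 and 0 CPM.

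Markers of further tissues differed less evenly. The muscle list summed to 4325 and 1359.7 CPM against 1132 and 1444 CPM, so that nkx2.2a library 1 alone stood out in the sum. Of its 27 genes, 21 had positive log2 fold changes, with a median of 1.17. Without overlap of any size, 8 lay toward the nkx2.2a sort and 1 toward the olig2 sort, beside 20.0% and 15.7% of all symbols. Only 1 (3.70%) was separated, the actin gene acta1b, at 90.8 and 9.38 CPM against 2.74 and 0.237 CPM. The blood and endothelium list summed to 143 and 212 CPM against 189.6 and 374 CPM. Of its 23 genes, 2 (8.70%) were separated toward the olig2 sort, against 2.83% of all symbols. Of 16 pronephros, lateral plate and heart genes, 8 had positive and 8 negative log2 fold changes. They summed to 181 and 388 CPM against 160 and 375 CPM, and 1 (6.25%) was separated each way, against 5.68% and 2.83% of all symbols. Toward the nkx2.2a sort this was tbx1. Toward the olig2 sort the pronephros gene atp1a1a.4 stood at 0.316 and 0.907 CPM against 3.04 and 32.2 CPM, high in olig2 library 2 only. Presomitic mesoderm and tailbud genes summed to 729 and 1048 CPM against 1168 and 1101 CPM, with 1 of 32 (3.1%) separated each way. Placode and ear genes were separated toward the nkx2.2a sort in 4 of 18 (22.2%), against 5.68% of all symbols. Hypochord and endoderm genes were so in 5 of 14 (35.7%), with 1 (7.14%) toward the olig2 sort. Of those 5 genes, col2a1a, foxa1 and foxa2 are also on the floor plate list. Of 23 dorsal neural tube genes 1 (4.35%) was separated, lmx1bb, and of 17 neural crest genes 1 (5.88%), ltk, shares near the 5.68% over all symbols. The gene sox1b was the 1 separated both of 11 Kolmer-Agduhr neuron genes (9.09%) and of 25 neural progenitor genes (4%). Of 43 stress and p53 genes, 5 (11.6%) were separated toward the nkx2.2a sort and 1 (2.33%) toward the olig2 sort. Their part in the differences described above was not tested.

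Among separated genes with symbols other than clone names, the largest fitted differences lay in genes at or near 0 in one sort. The transferrin gene tfa was at 0 in both olig2 libraries and at 43.9 and 91.9 CPM in the nkx2.2a libraries, at least 83.6-fold higher. The ion pump regulator gene fxyd1, at 37.4 and 19.96 CPM, the translation regulator gene bzw2, at 17.2 and 44.8 CPM, and srpx, at 12.3 and 48.99 CPM, were also at 0 in both olig2 libraries. Ratios were at least 35.3-fold, at least 38.2-fold and at least 37.8-fold. The keratin gene krt94, the retinoid enzyme gene cyp27c1 and triqk completed the 10 largest positive differences with pax9, fzd8b and six1b. Toward the olig2 sort, lrrc7, which encodes a synaptic scaffold protein, stood at 0.7896 and 0 CPM against 69.1 and 101 CPM. The GTPase regulator gene evi5a was at 0 in both nkx2.2a libraries and at 11.3 and 18.5 CPM in the olig2 libraries. The granin gene scg2b was at 0 in both as well, against 5.48 and 12.3 CPM. The others were ppp1r18, trim35-30, arl6ip5a, serpinb14, fmn2a, acadl and soga3b, and ppp1r18 stood at 41.1 and 2.61 CPM in the olig2 libraries, mostly in library 1.

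Of the 1087 genes separated with the nkx2.2a sort higher, 727 (66.9%) had both dbx1b libraries above both olig2 libraries. In 633 (58.2%) both lay below both nkx2.2a libraries. Both held for 318 (29.3%), whose dbx1b libraries thus lay between the nkx2.2a and the olig2 libraries. Of the 541 with the nkx2.2a sort lower, 376 (69.5%) had both dbx1b libraries below both olig2 libraries. In 257 (47.5%) both lay above both nkx2.2a libraries, and both held for 116 (21.4%). As examples picked from the 318, slit2 stood at 21.8 and 35.1 CPM, shhb at 15.3 and 18.04 CPM and cldnb at 6.66 and 5.497 CPM in the dbx1b libraries. By contrast pax1a, at 0.5403 and 0 CPM, was as low there as in the olig2 libraries.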

How the data were processed

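RNA from sorted cells was sequenced in 6 libraries, 4 of them compared here. The deposited counts are the authors' mapped reads per RefSeq transcript (54437 transcripts), not normalised and all even, so both mates of a fragment were counted, and 2 reads make 1 fragment. FastQC 0.11.3, Bowtie 1.1.1 and GRCz10 appear in the submitters' processing notes, with no role given. The rule for reads matching several transcripts is unknown here. Unmapped reads (66.6% to 80.6% per library) were left out. Counts were summed per symbol (30677 symbols, 21329 of them in the RefSeq table of assembly GRCz12tu, used for names only).

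edgeR 4.0.16 (R 4.3.3) fitted the reads of all 6 libraries, as deposited, with 1 mean per group (filterByExpr, minimum count 10 reads, TMM, quasi-likelihood test, Benjamini-Hochberg over 19129 symbols; tested on simulated data). DESeq2 1.42.0 was an alternative. SEs come from the F statistic. Folds against 0 use a floor of 3 fragments per library; floors and intervals cover counting error only. Nothing in the labels ties each library to its own pool of embryos, so p-values measure only the spread between these samples, which may be technical.

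Members, families (by symbol pattern, with igf2r and the hhat genes removed after a first look) and lists were chosen with earlier results of these data known. Named were the reporters, up to 3 separated members per family or list and direction by smallest edgeR p, and the 10 largest differences each way among separated genes at unadjusted edgeR p under 0.05, leaving out clone names, 164 genes in all. Genes outside this rule (as nkx2.2b, nkx2.9, nkx6.1, ptch1, the slit, netrin and robo genes, and marker genes) were chosen after their values were seen. Some of them show a family whole, and others are examples picked from larger families or lists. Certain items are not reported here. The series' tables of repeated counts, FPKM and ratios were not used.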

Additional observations from a re-analysis of the deposited data

How the results depend on the processing

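Of the 164 named genes, 163 kept their sign when each library was left out, but 111 moved by over 1.5-fold, and DESeq2 called 106. For example, sema3e ranged from -10.32 (without nkx2.2a replicate 1) to -3.91 and nkx2.1 from 1.53 to 11.59 (without olig2 replicate 1), both at 0 in 1 library; dbx1b ranged from -0.17 without nkx2.2a replicate 2 to 1.91 without nkx2.2a replicate 1. Genes past edgeR's adjusted p numbered 0, but 233 with no filter, 567 with DESeq2 and 0 to 6 with 1 library left out (6 without olig2 replicate 2 or dbx1b replicate 1, 5 without dbx1b replicate 2). At unadjusted p under 0.05 the 1171 higher genes became 766 in the fit of only the 4 libraries, and the 502 lower genes 329 there and 843 with no filter; with 1 library left out the lower genes ranged from 259 (without nkx2.2a replicate 2) to 1261 (without nkx2.2a replicate 1, when 1169 were higher). The cause was not tested.

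Separated genes numbered 448 higher and 133 lower with a 4-fold gap and 2902 and 2410 with any gap. For transcription factors these were 24 and 6, and 96 and 81. For surface genes they were 25 and 3, and 155 and 66. For secreted genes they were 31 and 1, and 93 and 22. A sort left with 1 library separates more genes by construction. With each of the 6 libraries left out in turn there were 1095 to 2571 higher and 527 to 2148 lower, for transcription factors 43 to 84 and 27 to 84 (77 higher and 84 lower without nkx2.2a replicate 1, so that the balance turned), for surface genes 65 to 127 and 13 to 72, and for secreted genes 55 to 90 and 4 to 33. Higher genes at unadjusted edgeR p under 0.05 ranged from 813 to 1592. Scaling by RLE or by totals moved no count by over 1.5 times. A filter at 1 CPM in 2 libraries kept the same 19129 symbols as the minimum count, so it tests nothing further. Fitting fragments in place of reads, chosen after seeing the data, gave 0 adjusted calls by edgeR and 1206 higher and 543 lower at unadjusted p under 0.05.

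The replicate numbers are shared by the sorts, but nothing in the labels pairs them, and the deviations of same-numbered libraries correlated at 0.0235. With the number as a block, edgeR called 0 genes, and 860 higher and 401 lower reached an unadjusted p under 0.05. The 2 libraries of a sort differed by 45.4 (nkx2.2a) and 41.8 (olig2) times counting noise, as chi-square per degree of freedom.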

Other observations

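Transporter and channel genes, counted above among the surface molecules, were not described there. Of 246 solute carrier genes tested, 19 (7.72%) were separated toward the nkx2.2a sort and 7 (2.85%) toward the olig2 sort, against 5.68% and 2.83% of all symbols. The vesicular nucleotide transporter gene slc17a9b was at 0 in both olig2 libraries and stood at 12.2 and 7.26 CPM in the nkx2.2a libraries. The anion exchanger gene slc4a2a stood at 13.1 and 3.33 CPM against 61.8 and 63.8 CPM, toward the olig2 sort. The taurine transporter gene slc6a6b stood at 0.947 and 1.51 CPM against 3.04 and 50.7 CPM, high in olig2 library 2 only. Of 116 ion channel genes, 3 (2.59%) were separated toward the nkx2.2a sort and 2 (1.72%) toward the olig2 sort. Both shares lay below the 5.68% and 2.83% of all symbols, but only 45 of the 116 averaged 5 CPM or more in a sort. Among those 45 the shares were 6.67% and 4.44%, against 7.89% and 3.93% of all genes at that level. The 3 toward the nkx2.2a sort were cacna1aa, cacna1g and trpm6. The 2 toward the olig2 sort were the potassium channel gene kcnk5b and the AMPA receptor gene gria3a. The former stood at 7.11 and 4.54 CPM against 78.2 and 22.8 CPM, and the latter at 0.158 and 0 CPM against 10.7 and 4.504 CPM.

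Nuclear receptor and Smad genes were separated in 6 of 57 (10.5%) toward the nkx2.2a sort and 2 of 57 (3.51%) toward the olig2 sort. Over all symbols these shares were 5.68% and 2.83%. The inhibitory Smad gene smad6a stood at 76.3 and 176 CPM against 11.3 and 20.4 CPM, the thyroid hormone receptor gene thrb at 16.7 and 7.56 CPM against 0 and 0 CPM, and the orphan receptor gene nr6a1b at 1.11 and 0 CPM against 17.6 and 12.8 CPM.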
